A study of Mus musculus with 9 samples.

Results

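The comparison described here sets a mouse embryonic fibroblast (MEF) line labelled Oga knockout (KO) against a line labelled Oga heterozygous (Het). It uses all 3 arrays of each line, 6 of the 9 arrays in the series, chosen by their labels and not by any measured value. The other 3 arrays come from a wild-type (WT) line and are given as a background level. All 3 lines came from female embryos at E12.5, from crosses between Oga heterozygous mice. Those mice descended from a male with a floxed Oga allele on a C57Bl/6 background and a female carrying MMTV-Cre, a Cre recombinase driven by the mouse mammary tumour virus promoter, on a B6129 background. WT, Het and KO are the genotypes as labelled, and no drug or other treatment is named for any line. RNA of each line was hybridised in technical replicates, so each genotype is represented by a single line. The p-values below therefore measure only the spread between arrays of a line, and the Oga genotype cannot be told apart from any other difference between these lines, strain-derived alleles included.

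O-GlcNAc is a single N-acetylglucosamine sugar that cells attach to serine and threonine residues of nuclear, cytoplasmic and mitochondrial proteins. Ogt, the O-GlcNAc transferase, adds it from UDP-GlcNAc, the end product of the hexosamine pathway, and Oga, the O-GlcNAcase, removes it. Transcription factors, RNA polymerase II, chromatin regulators and signalling kinases are among its many substrates, and cells are known to adjust Ogt and Oga to each other. MEF cultures are mostly mesenchymal cells of the embryo body and can carry other cell types, among them tissue macrophages, muscle precursors and epithelial cells.

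Values are the deposited log2 intensities, so a difference of 1 is a 2-fold difference. A gene was called when its adjusted p in limma was below 0.05 and its difference was at least 1 on the log2 scale. Of 12962 genes tested, 259 were called (2%), 81 higher in KO (0.625%) and 178 lower in KO (1.37%). These shares are the background for each count of called genes in a gene list below. The median difference over all genes tested was -0.02. Because technical replicates lay close together, 6782 genes (52.3%) passed the adjusted p alone, and in 7510 genes (57.9%) the 3 KO and the 3 Het arrays did not overlap. The KO and Het arrays did not overlap for any of the 259 called genes. The size of a difference therefore separates these genes more than its p does. Of the called genes, 17 differed by at least 4-fold, 12 of them lower and 5 higher in KO.

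**Figure D1:**
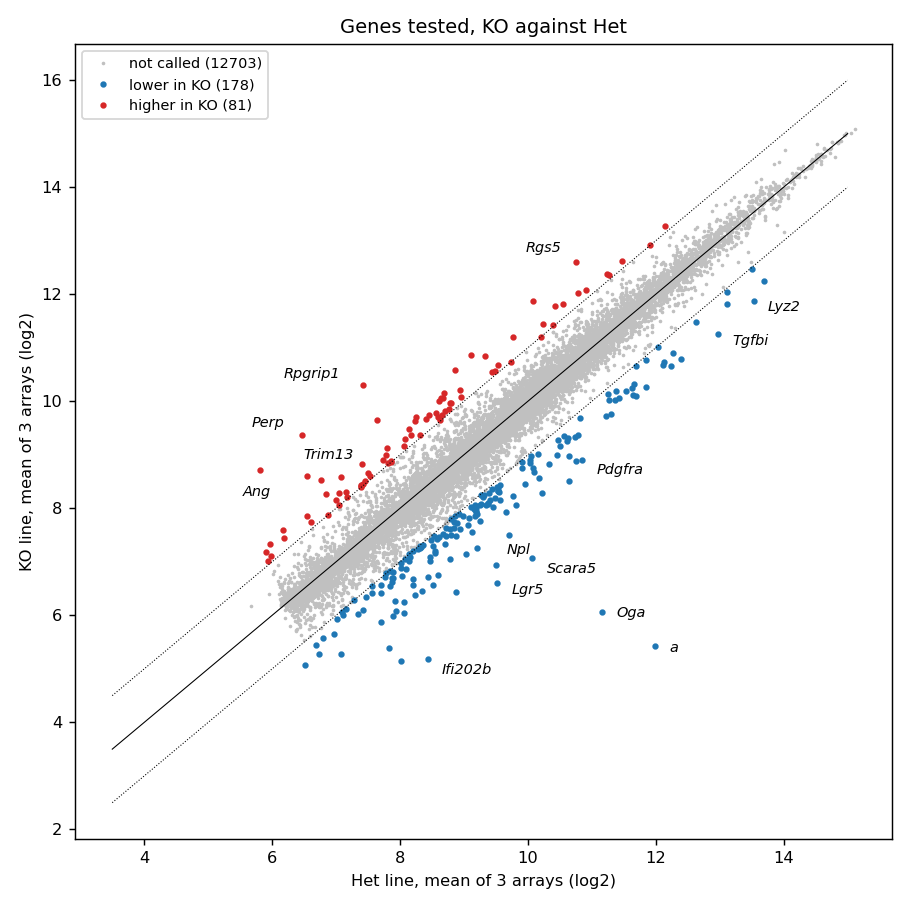
Mean of the 3 KO arrays (y axis, log2) against the mean of the 3 Het arrays (x axis, log2) for the 12962 genes tested. Blue points are the 178 genes called lower and red points the 81 called higher, grey points were not called, the solid line marks equal values and the dotted lines a 2-fold difference; most genes lie near the solid line, and a and Oga lie farthest below it.

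The arrays were alike in overall level, with medians of 6.87 to 6.95 over the 9 arrays. Pearson's r over probe sets, a description of arrays that share a platform, was 0.998 to 0.999 within Het, 0.998 to 0.999 within KO and 0.993 between them. The control probe sets for the 3' end minus the 5' end of actin, a sign of RNA integrity, gave 0.11 ± 0.015 (SD, n = 3 arrays) in Het and 0.07 ± 0.019 in KO on the log2 scale. Those for Gapdh gave -0.0020 ± 0.0059 in Het and -0.07 ± 0.032 in KO. WT gave 0.07 ± 0.011 for actin and -0.08 ± 0.0097 for Gapdh, near KO, so Het was the line apart. These small gaps move with the comparison, and their part in the results was not tested.

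The fibroblast label was checked against some of the defining markers. Col1a1 and Col1a2, the chains of type I collagen, had means of 14.87 and 15.08 in KO and 14.89 and 15.12 in Het. The intermediate filament Vim averaged 14.71 in KO and 14.63 in Het, and fibronectin, Fn1, 14.84 and 14.75. These markers were near the top of the array's range in both lines, whose values ran from 3.25 to 15.1 over all arrays. Of the markers given here, Pdgfra, the platelet-derived growth factor receptor that marks embryonic fibroblasts, was the exception. It read 9.03, 8.99 and 8.72 in the KO arrays and 10.88, 10.87 and 10.79 in the Het arrays. The KO arrays lay below every Het array, a fall of 1.93 ± 0.073 (SE) with an adjusted p of 6.91e-09 in limma. The 2 other Pdgfra probe sets above the filter differed by -0.83 and -0.73, under the 2-fold minimum. Over all 19 fibroblast genes tested, 14 differences were negative and 5 positive, and Pdgfra and Lum were called lower. The mean level of the 19 was 11.93 in KO, 12.22 in Het and 12.38 in WT.

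Oga, the gene named in the labels, was low in every KO array. Its brightest probe set read 6.03, 6.08 and 6.08 in KO, and the same 11.16 in each of the 3 Het arrays. WT averaged 11.92 on that probe set, so Het lay between KO and WT, closer to WT. The fall from Het to KO was 5.09 ± 0.044 (SE) on the log2 scale, 34.2-fold, with an adjusted p of 1.17e-12 in the limma fit over all 45037 probe sets. The 5 other Oga probe sets fell by 3.56, 3.29, 2.84, 2.28 and 1.27, each with an adjusted p of 2.11e-05 or lower. KO means on the 6 probe sets ran from 4.91 to 6.47, against a low-signal filter at 6.22. The labels do not say which probe sets lie in the deleted part of the gene.

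Ogt, the enzyme that opposes Oga, had small differences on its 5 probe sets. The brightest averaged 10.88 in KO and 11.16 in Het, a difference of -0.28 ± 0.056 (SE) with an adjusted p of 0.00401 in limma. The other 4 differed by -0.21, -0.01, 0.05 and 0.13, with adjusted p-values of 0.122 to 0.930. Neither the sign nor the adjusted p was shared among the Ogt probe sets, and none reached 2-fold.

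**Figure D2:**
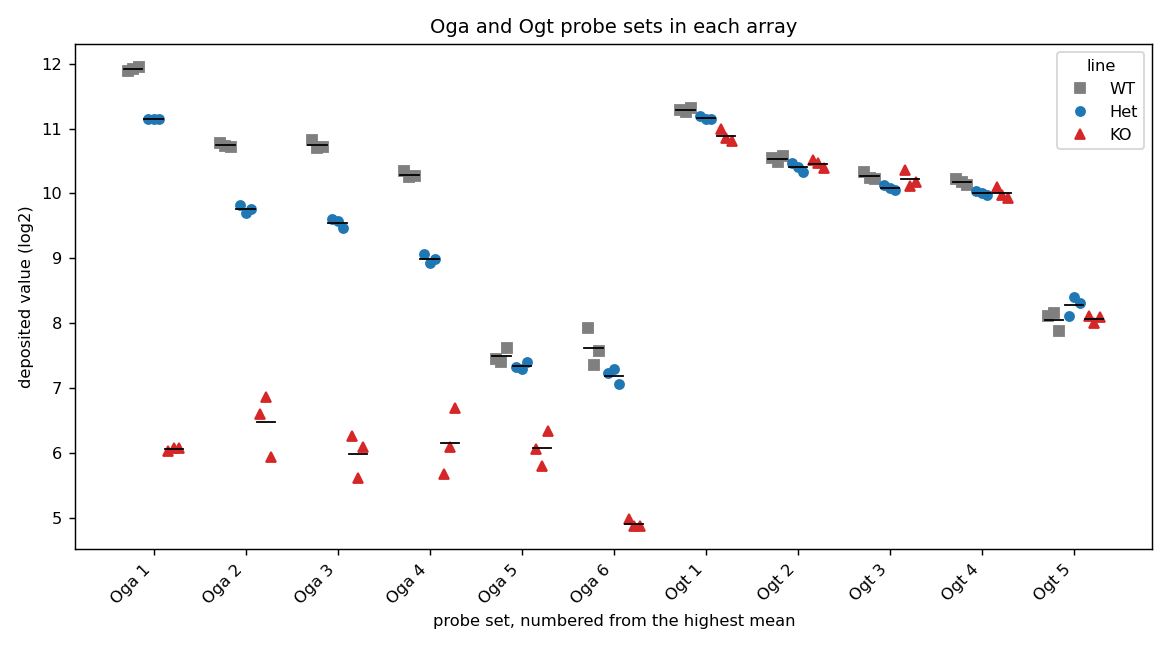
Deposited log2 value (y axis) in each array for the 6 Oga and 5 Ogt probe sets (x axis, numbered from the highest mean). Points are arrays of WT (grey), Het (blue) and KO (red), and black bars are line means; the 3 KO arrays lie below the Het arrays on every Oga probe set, and the lines lie close together on the Ogt probe sets.

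Of 17 tested genes of O-GlcNAc cycling and hexosamine synthesis and salvage, none was called higher and 2 were called lower, Oga and Npl, with a list median of 0.09. Npl, the N-acetylneuraminate pyruvate lyase that breaks down sialic acid, read 6.95, 6.90 and 6.99 in KO and 9.47, 9.43 and 9.60 in Het. The KO arrays were all lower, a fall of 2.55 ± 0.049 (SE) with an adjusted p of 5.51e-11 in limma, and WT averaged 8.41, between the lines. Pgm3 and Gnpnat1, enzymes of UDP-GlcNAc synthesis, differed by 0.49 and 0.40, and Eogt, which adds O-GlcNAc to extracellular domains, by 0.40. None of the 3 reached the 2-fold minimum, although each had an adjusted p below 0.05.

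The widest differences of the comparison included several genes on which WT did not lie with Het. The gene a, agouti, encodes a secreted antagonist of the melanocortin 1 receptor that switches hair pigment. It read 5.33, 5.46 and 5.48 in KO and 11.90, 11.99 and 12.09 in Het. WT averaged 5.29, so Het alone was high, and KO was lower than Het by 6.57 ± 0.080 (SE), with an adjusted p of 1.48e-12 in limma. It was the only called member of 8 tested pigment genes, and the melanocyte genes Tyr, Dct and Mlana averaged 4.91 to 5.77 in KO and 4.90 to 5.80 in Het, all under the filter.

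Ang, angiogenin, a secreted ribonuclease, read 8.71, 8.70 and 8.71 in KO and 5.89, 5.75 and 5.81 in Het, with a WT mean of 9.08. Here Het was the low line, and KO was higher by 2.89 with an adjusted p of 1.41e-11 in limma. The Ang probe set belongs to a class that can match related transcripts, and its other 2 probe sets differed by 0.24 and 2.67, so the size is uncertain. Rpgrip1, a protein of the photoreceptor connecting cilium, averaged 10.30 in KO, 7.42 in Het and 10.38 in WT. Trim13, an E3 ubiquitin ligase of the endoplasmic reticulum, averaged 8.61, 6.55 and 8.50 in the same order. Ptprv, a receptor-type tyrosine phosphatase, had the opposite sign, with means of 7.55 in KO, 9.12 in Het and 7.34 in WT, and was singled out after its values were seen. On a, Ang, Rpgrip1, Trim13 and Ptprv the Het line was the one that stood apart. The widest gap between KO and WT among them was that of Ang, -0.37.

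The other genes among the 15 with the largest falls had WT on the Het side. Scara5, a scavenger receptor that takes up ferritin, read 7.20, 7.02 and 6.98 in KO and 10.02, 10.09 and 10.09 in Het, a fall of 3.00 ± 0.055 (SE) with an adjusted p of 4.03e-11 in limma. WT averaged 11.12, above both lines. Lgr5, the R-spondin receptor of the Wnt pathway, read 6.99, 6.20 and 6.62 in KO and 9.59, 9.43 and 9.52 in Het. The KO arrays spread more here than for Scara5 but stayed below every Het array, with a fall of 2.91 ± 0.148 (SE) and an adjusted p of 5.46e-08. Egfl6, a secreted protein with EGF repeats, read 5.45, 5.28 and 4.73 in KO and 8.03, 8.05 and 7.96 in Het, a fall of 2.86 ± 0.152 (SE). Lgr5 and Egfl6 were each the member of their list with the largest difference, and Lgr5 was the only called gene of 34 tested in the Wnt pathway, whose median was -0.02.

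Ifi202b, an interferon-inducible DNA-binding protein of the p200 family, read 5.26, 5.28 and 4.98 in KO and 8.47, 8.40 and 8.42 in Het. The family has closely related neighbouring copies, so its signal may hold more than this gene. F13a1, the A subunit of coagulation factor XIII, which macrophages make, averaged 6.44 in KO and 8.88 in Het. Aqp4, a water channel, averaged 5.39 in KO and 7.82 in Het, and Ndufa4l2, a hypoxia-induced mitochondrial protein, 7.51 and 9.71. Gstk1, a mitochondrial glutathione transferase, fell by 2.02. Clec4d and Stab1, receptors of myeloid cells and of tissue macrophages, fell by 1.96 and 1.94, and Cpxm2, a carboxypeptidase-like secreted protein, by 1.95. The adjusted p-values of these 15 falls ran from 8.74e-15 to 7.71e-08, and in 6 of the 15 the KO mean was under the filter, where array signal is near background and the size is compressed.

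Among the rises, Perp led. Perp is a p53 target that also serves as a desmosome component. It read 9.44, 9.41 and 9.29 in KO and 6.50, 6.37 and 6.52 in Het, and WT averaged 6.44. KO alone was high, by 2.92 ± 0.097 (SE) over Het, 7.54-fold, with an adjusted p of 2.96e-09 in limma. Serpinb6b, an intracellular serine protease inhibitor with close family copies, averaged 9.65 in KO and 7.64 in Het. Rgs5, a regulator of G protein signalling and a pericyte marker, read 12.61, 12.63 and 12.55 in KO and 10.75, 10.80 and 10.69 in Het, a rise of 1.85. Ankrd1, a sarcomere-linked protein and a known target of YAP, averaged 11.87 and 10.07. For Perp, Serpinb6b, Rgs5 and Ankrd1 WT lay near Het, with the widest gap, 0.28, on Rgs5.

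Ccl20, the chemokine that binds CCR6, read 8.65, 8.51 and 8.45 in KO and 6.84, 6.76 and 6.71 in Het, and Parm1, a mucin-like membrane protein, averaged 10.87 and 9.11. Htr1b, a serotonin receptor, rose by 1.71 on its brightest probe set, but its other probe set differed by 0.14 and with probe sets averaged the difference was 0.92, under the minimum. Krt18, a keratin of simple epithelia, rose by 1.51 and the potassium channel Kcnk1 by 1.5. The growth factor Pdgfd rose by 1.47, the procollagen-processing protease Tll1 by 1.45 and Ptgs2, the inducible cyclooxygenase, by 1.44. The 15 largest rises had adjusted p-values of 1.41e-11 to 1.25e-07, and only Ang had its lower mean under the filter.

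**Figure D3:**
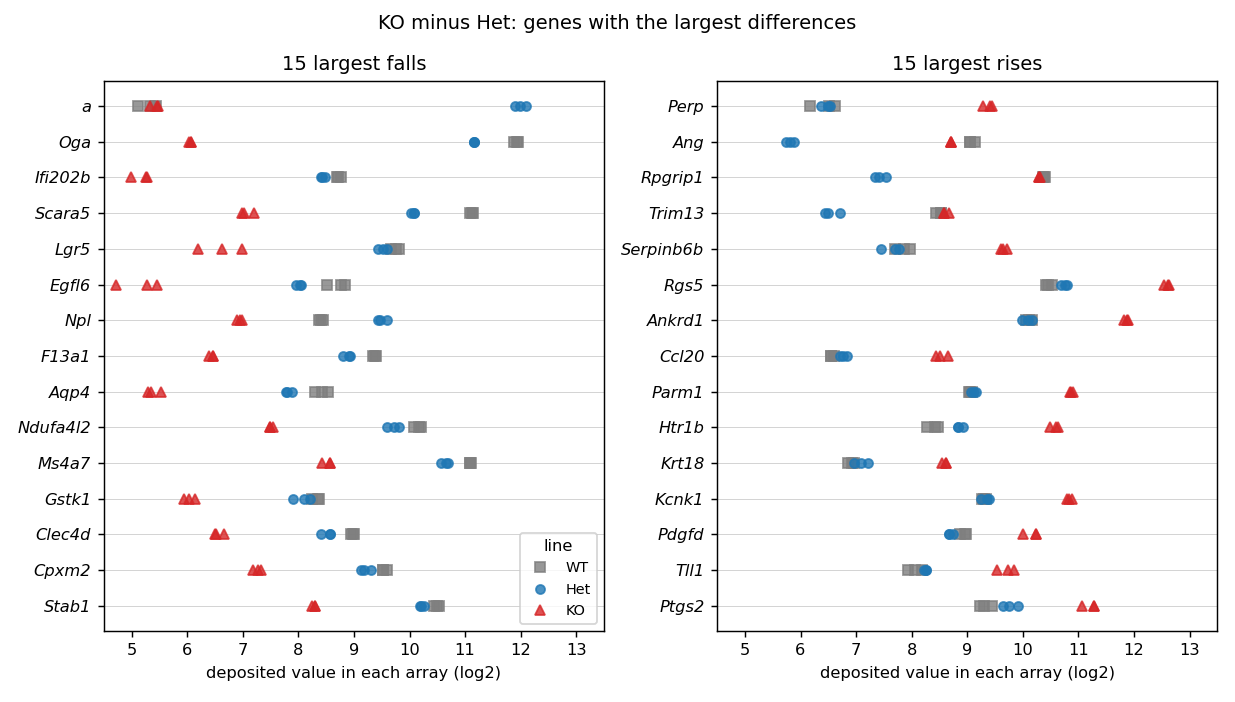
Deposited log2 value (x axis) in each array for the 15 genes with the largest falls (left) and rises (right) in KO against Het. Points are arrays of WT (grey squares), Het (blue circles) and KO (red triangles); on no gene do KO and Het arrays overlap, and for a, Ang, Rpgrip1 and Trim13 the WT arrays lie with KO.

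Macrophage genes were lower in KO as a group. Of 28 tested macrophage and blood genes, none was called higher and 25 were called lower, against 1.37% of all genes tested, and the list median was -1.33. The 28 differences lay between -2.12 and -0.88, so each was negative. The mean level over the 28 genes ran from 9.15 to 9.20 in the KO arrays and from 10.50 to 10.56 in the Het arrays, with 10.89 to 10.91 in WT. In bulk RNA, fewer cells of a type and less RNA of these genes per cell cannot be told apart.

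Ms4a7, a membrane protein of tissue macrophages, read 8.57, 8.56 and 8.42 in KO and 10.57, 10.69 and 10.65 in Het, and fell by 2.12 with an adjusted p of 1.92e-10 in limma. Cd68, a lysosomal glycoprotein of macrophages, read 8.85, 8.84 and 8.98 in KO and 10.67, 10.77 and 10.80 in Het, a fall of 1.86. In both genes the KO arrays lay well under the Het arrays. The mannose receptor Mrc1 fell by 1.66 and the lysozyme Lyz2 by 1.65. C1qa and C1qb, chains of complement component C1q, fell by 1.60 and 1.58, and C1qc, the third chain, by 1.53. Among the defining markers outside the largest 6, the perforin-like Mpeg1 fell by 1.53, the colony-stimulating factor receptor Csf1r by 1.44, the F4/80 antigen Adgre1 by 1.42, the signalling adaptors Fcer1g and Tyrobp by 1.38 and 1.36, and the CD45 antigen Ptprc by 1.21. Aif1, Cd53 and Fcgr2b, which were not called, differed by -0.88, -0.96 and -0.91, and 3 other Fcgr2b probe sets lay between -2.67 and -2.05. No defining macrophage marker was under the filter in KO: Csf1r averaged 10.67 and Lyz2 11.88 there.

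**Figure D4:**
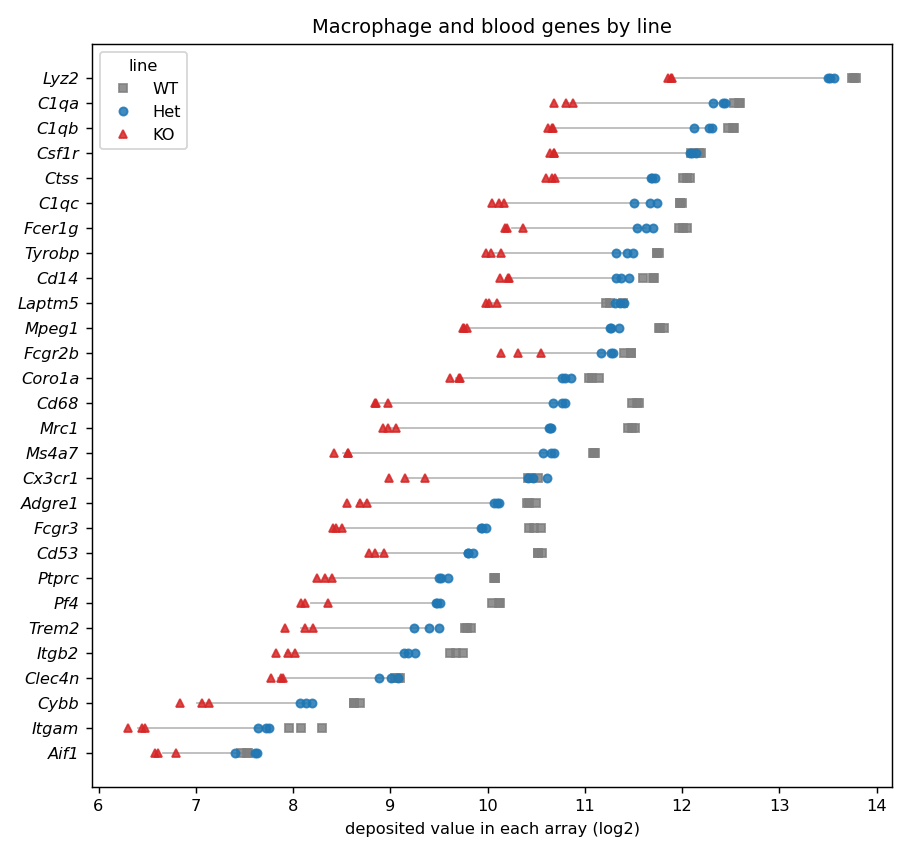
Deposited log2 value (x axis) in each array for the 28 tested macrophage and blood genes. Points are arrays of WT (grey squares), Het (blue circles) and KO (red triangles), and lines join the Het and KO means. Every KO array lies to the left of the Het arrays, by 0.88 to 2.12 on average.

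Interferon-stimulated genes were lower more unevenly. Of 33 tested, none was called higher and 9 were called lower, against 1.37% of all genes tested, and the median was -0.46, with differences from -1.85 to 0.31. Ifi27l2a, a mitochondrial interferon-induced protein, read 6.44, 6.25 and 6.43 in KO and 8.17, 8.42 and 8.11 in Het. Oasl2, of the oligoadenylate synthetase family, fell by 1.65, and Ifi27 by 1.60. Ifit1, which binds foreign RNA caps, read 7.31, 7.34 and 7.37 in KO and 8.61, 8.78 and 8.75 in Het, with 9.73 in WT. It fell by 1.37 with an adjusted p of 1.01e-08 in limma, and its 3 KO arrays lay below all Het arrays. Rtp4 and Usp18, a chaperone of membrane receptors and the protease that removes ISG15 from proteins, fell by 1.31 and 1.23. Bst2 (tetherin), Oas1a and Trim30a, the remaining called members, fell by 1.20, 1.18 and 1.10. Macrophages also express interferon-stimulated genes, their markers moved in the same direction in the same arrays, and the part of one in the other was not tested.

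RefSeq promoter windows (GRCm38.p6, 250 bases before to 50 after a transcript start) were searched for the interferon-stimulated response element, read as GAAA, any 2 bases and GAAA again, on both strands with overlapping matches counted. Promoters were held for 5 of the 9 called interferon-stimulated genes, and 4 of the 5 had a match; 10 of 23 tested members with a promoter had one, against 3.42% of 10439 tested genes and 3.44% of all 32851 promoters. These 4 are shown because they carry the element in genes that fell together, with matches in capitals, on the strand of the gene and 5′ to 3′. Ifit1 is at chr19:34640639-34640938 (plus strand), Oas1a at chr5:120907476-120907775 (minus), Bst2 at chr8:71537423-71537722 (minus) and Trim30a at chr7:104465144-104465443 (minus).
Ifit1: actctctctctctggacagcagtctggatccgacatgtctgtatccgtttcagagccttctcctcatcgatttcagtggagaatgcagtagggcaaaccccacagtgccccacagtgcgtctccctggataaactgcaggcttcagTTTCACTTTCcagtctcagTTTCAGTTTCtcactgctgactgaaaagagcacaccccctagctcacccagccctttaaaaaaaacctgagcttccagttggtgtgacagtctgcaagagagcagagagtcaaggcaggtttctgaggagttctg
Oas1a: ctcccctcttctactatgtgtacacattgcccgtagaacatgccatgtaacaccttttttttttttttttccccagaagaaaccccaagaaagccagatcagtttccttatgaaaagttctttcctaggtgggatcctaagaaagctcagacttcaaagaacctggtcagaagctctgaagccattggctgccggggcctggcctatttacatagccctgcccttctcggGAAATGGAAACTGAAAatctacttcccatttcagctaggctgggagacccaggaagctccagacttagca
Bst2: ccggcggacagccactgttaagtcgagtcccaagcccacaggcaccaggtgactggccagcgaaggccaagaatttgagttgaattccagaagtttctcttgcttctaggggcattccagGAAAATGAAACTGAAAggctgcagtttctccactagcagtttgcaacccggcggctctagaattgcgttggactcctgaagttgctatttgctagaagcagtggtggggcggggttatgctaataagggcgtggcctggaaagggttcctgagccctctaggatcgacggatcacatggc
Trim30a: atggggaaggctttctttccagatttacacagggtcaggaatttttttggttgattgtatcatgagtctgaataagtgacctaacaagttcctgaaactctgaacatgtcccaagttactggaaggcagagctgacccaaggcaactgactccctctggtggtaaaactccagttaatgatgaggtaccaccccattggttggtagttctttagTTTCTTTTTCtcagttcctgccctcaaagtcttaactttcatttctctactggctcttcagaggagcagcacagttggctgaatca
Ifit1 has 2 separate matches and Oas1a and Bst2 each have 2 overlapping ones. In Oas1a the first match starts 20 bases before the transcript start, in Trim30a 36, in Ifit1 104 and in Bst2 130. A match describes letters and not a bound site. Oasl2, the called gene without one, lacks only these letters in this window, and it fell by 1.65.

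The same windows were searched for GAGGAAGT, a core sequence of PU.1, the myeloid transcription factor, on both strands. It lay in 3 of 18 called macrophage genes with a promoter, C1qc, Ctss and Pf4, against 3.58% of tested genes and 3.2% of all promoters. The promoters of C1qc at chr4:136892865-136893164 (minus strand) and of Ctss at chr3:95526536-95526835 (plus strand) are shown as examples, with the match in capitals. That of Pf4 is not shown. The match starts 195 bases before the transcript start in C1qc and 2 bases before it in Ctss. Ctss, the lysosomal protease cathepsin S, fell by 1.04 and Pf4, platelet factor 4, by 1.30.
C1qc: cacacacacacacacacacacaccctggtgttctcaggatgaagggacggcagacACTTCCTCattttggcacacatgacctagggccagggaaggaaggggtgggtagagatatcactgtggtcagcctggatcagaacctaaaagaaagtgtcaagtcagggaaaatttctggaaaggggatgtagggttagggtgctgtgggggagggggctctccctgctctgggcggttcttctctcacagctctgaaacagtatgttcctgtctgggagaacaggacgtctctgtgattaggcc
Ctss: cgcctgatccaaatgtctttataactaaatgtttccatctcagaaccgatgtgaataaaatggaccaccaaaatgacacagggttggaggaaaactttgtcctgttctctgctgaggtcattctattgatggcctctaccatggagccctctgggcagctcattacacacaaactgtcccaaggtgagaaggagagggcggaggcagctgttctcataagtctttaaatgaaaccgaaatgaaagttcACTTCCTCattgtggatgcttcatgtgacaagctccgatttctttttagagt
In the windows of the other 15 called macrophage genes with a promoter these letters were not found, which says nothing of other sites.

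Other immune lists had few calls. Of 12 tested guanylate-binding and p200 genes only Ifi202b was called, and the median was -0.56, but it was -0.10 when the dimmest 60% of probe sets were left out. Of 11 MHC class I presentation genes, Psmb8, an immunoproteasome subunit, fell by 1.09, and the median was -0.31. Among 18 chemokine genes, Ccl20 rose and Ccl9, a monocyte-attracting chemokine, fell by 1.26, with a median of -0.10.

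Genes known as p53 targets were the list with the most called rises by number. By share, the epithelial and mesothelial list below was higher, at 40% against 28%. Of 25 tested, 7 were called higher and none lower, against 0.625% of all genes tested, and the median was 0.45. In 24 of the 25 the difference was positive, and Sesn1, at -0.35, was the exception. Besides Perp, Pmaip1, which encodes the cell-death protein Noxa, read 11.85, 11.85 and 11.66 in KO and 10.43, 10.43 and 10.42 in Het. It rose by 1.36 ± 0.053 (SE) with an adjusted p of 7.83e-09 in limma, and the groups did not overlap. Rprm, a G2 arrest protein, rose by 1.29, Sfn, the 14-3-3 sigma protein, by 1.26, the receptor Eda2r by 1.19 and the antiproliferative factor Btg2 by 1.17.

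Mdm2, the ubiquitin ligase that degrades p53, was the seventh called target. It read 12.44, 12.24 and 12.39 in KO and 11.23, 11.25 and 11.35 in Het, a rise of 1.08. Cdkn1a, the p21 cell cycle inhibitor, averaged 13.68 in KO and 13.07 in Het, a difference of 0.61 that was under the 2-fold minimum. The mean level over the 25 targets was 10.68 to 10.72 in KO, 10.03 to 10.09 in Het and 9.98 to 9.99 in WT. A p53 half-site was found in the Mdm2 promoter alone among 5 called targets with a promoter window, and in 8 of 19 tested targets, against 8.29% of tested genes.

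Cell cycle lists differed little, and mostly downward. None of 27 mitosis genes and none of 27 DNA replication genes was called, and their medians were -0.10 and -0.11. By the adjusted p alone in limma, 12 and 16 of them passed, and 15 and 18 had an unadjusted p below 0.05. Over all genes tested 52.3% passed the adjusted p and 57.4% had an unadjusted p below 0.05, the background for each such count given here. Differences ran from -0.40 to 0.21 for mitosis and from -0.47 to 0.36 for replication. They were negative in 19 and positive in 8 mitosis genes, and negative in 21 and positive in 6 replication genes.

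Growth factor response genes included a few rises, where 0.625% of all genes tested were called higher. Dusp4, a nuclear MAP kinase phosphatase, read 8.87, 8.80 and 8.82 in KO and 7.27, 7.40 and 7.54 in Het, a rise of 1.43, and was the only called gene of 16 phosphatase and Sprouty genes. Hbegf and Ereg, ligands of the EGF receptor, rose by 1.27 and 1.09, and were 2 of 11 tested members of that family; without KO replicate 1 the Ereg difference was 0.99. Dusp1 and Egr2, an early phosphatase and a zinc-finger factor, rose by 1.09 and 1.05, the called members of 21 immediate early genes. Ptgs2 was the only called gene of 12 in prostaglandin metabolism: it read 11.27, 11.29 and 11.07 in KO and 9.91, 9.75 and 9.64 in Het. List medians were 0.12 for the phosphatases, 0.19 for the EGF family, 0.13 for the immediate early genes and -0.01 for prostaglandin genes. Differences were positive in 13 of 16 phosphatase and Sprouty genes, 8 of 11 EGF family genes, 16 of 21 immediate early genes and 6 of 12 prostaglandin genes. The median difference over all genes tested was -0.02.

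Muscle genes were higher in KO in part. Of 22 tested sarcomere and skeletal muscle genes, 3 were called higher, against 0.625% of all genes tested, and none lower, with a median of 0.37. Ldb3, a Z-disc protein, read 8.33, 8.22 and 8.24 in KO and 6.88, 6.80 and 6.83 in Het, and rose by 1.42. Its other probe set above the filter differed by 0.61, under the 2-fold minimum. Tnnt2 and Tnni1, the T and I subunits of troponin, rose by 1.15 and 1.03, and Tnni1 was at 0.99 without Het replicate 1, Het replicate 2 or KO replicate 3. The actin Acta1 averaged 9.63 in KO and 8.80 in Het, and Myog, a myogenic factor, 7.35 and 7.19. Myod1, which starts the muscle programme, was under the filter in all lines, at 6.21 in KO and 6.13 in Het. The list median depended on that filter: it was 0.19 with none and 0.67 when the dimmest 60% were left out.

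Of 18 smooth muscle and pericyte genes, Rgs5 was the only call, with a median of 0.27. Differences were positive in 13 of them and negative in 5, and ran from -0.99 to 1.85. Cnn1, the actin-binding calponin, averaged 13.07 in KO and 12.23 in Het, and Acta2, smooth muscle actin, 14.74 and 14.64. Values of the markers Tagln, Myh11 and Cspg4 are not given here, so the markers named do not stand for the list. Of 22 genes known to respond to TGF-beta, Tgfbi fell by 1.72 and none was called higher, while 18 of the 22 differences were positive and the median was 0.27. The widest positive difference was that of Ltbp2, a latent TGF-beta binding protein, at 0.95, under the 2-fold minimum. Tgfbi, a secreted adhesion protein, read 11.28, 11.24 and 11.25 in KO and 12.97, 12.97 and 12.98 in Het, with 13.27 in WT. Its direction was against that of most members of its list.

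Epithelial genes were few above background, and those that were called rose. Of 10 tested epithelial and mesothelial genes, 4 were called higher, against 0.625% of all genes tested: Perp, Krt18, Sfn and Krt19, a further keratin of simple epithelia, which rose by 1.16. Krt18 read 8.55, 8.61 and 8.61 in KO and 6.96, 7.09 and 7.21 in Het. Krt8, the usual partner of Krt18, averaged 7.01 and 6.94, and its arrays overlapped. Epcam, an epithelial adhesion molecule, averaged 8.74 and 8.63, and E-cadherin, Cdh1, was under the filter at 4.03 in KO and 4.25 in Het. In all, 13 list members were under the filter, among them Cdh1 and the desmosome plaque protein Dsp. Dsp read 7.52, 7.40 and 7.37 in KO and 4.73, 4.89 and 4.69 in Het. Dsp failed the filter because it was dim in 2 of the 3 lines, and with no filter it was called, at 2.66. Perp and Sfn are also counted among the p53 targets.

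Extracellular matrix genes differed chain by chain. Of 21 collagen chains, Col8a2 fell by 1.38 and Col6a3 by 1.07, none was called higher, and the median was -0.15. Col4a5, a basement membrane chain singled out after its values were seen, averaged 11.21 in KO and 10.21 in Het and was just under the 2-fold minimum. Col8a2 read 10.91, 10.90 and 10.87 in KO and 12.28, 12.25 and 12.28 in Het. The other chains of collagen VI, singled out after their values were seen, lay close by, with Col6a1 at -0.91 and Col6a2 at -0.88, whereas Col1a1 was at -0.02. The proteoglycans Fmod and Lum, which organise collagen fibrils, fell by 1.33 and 1.24, 2 of 9 tested, and all 9 differences were negative. The median of that list was -0.37 here, -0.08 with no filter and -0.60 when the dimmest 60% were left out.

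Of 30 matricellular, elastic fibre and basement membrane genes, Efemp1 rose by 1.13 and Egfl6 and Lama4 fell. Efemp1, a fibulin, read 12.38, 12.48 and 12.27 in KO and 11.30, 11.20 and 11.22 in Het. Lama4, a laminin chain, fell by 1.07 on its brightest probe set and differed by -0.78 with probe sets averaged. None of 23 matrix proteases and inhibitors was called in limma, with differences from -0.63 to 0.69 and an unadjusted p below 0.05 in 16. Of 16 tested cartilage genes, 2 were called lower and none higher, with a median of -0.27. Differences were negative in 13 and positive in 3, the widest positive one at 0.36. Col9a3, a cartilage collagen chain, fell by 1.07. Col9a1 fell by 1.89 on the brightest probe set, but its second probe set differed by -0.34. That second probe set became the brightest when only the 6 arrays of these lines were used. It also did so when any single Het or WT array was left out, and in each case the call ended.

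Genes of limb and body position had list medians near that of all genes, 0.17 for Hox genes and -0.09 for other position factors. Of 29 Hox genes, Hoxd13 and Hoxa13, which pattern the distal limb and genital bud, rose by 1.12 and 1.10. Hoxd13 read 10.05, 10.07 and 10.11 in KO and 8.93, 8.95 and 9.0 in Het, with 9.72 in WT. Of 32 other position factors, Lhx9, a limb and gonad factor, rose by 1.40 and Tbx4, the hindlimb factor, by 1.07, while Zic1 fell by 1.12. WT averaged 9.04 for Lhx9, 8.30 for Tbx4 and 6.78 for Hoxa13, against Het means of 8.23, 7.53 and 5.93. In these 4 rising genes WT lay between the lines and nearer to KO. Tbx4 was at 0.92 with probe sets averaged and 0.98 without Het replicate 1.

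Metabolic lists held few calls. Ndufa4l2 and Ankrd37 were the called members of 19 hypoxia genes, with falls of 2.20 and 1.12 and a list median of -0.23. Differences in that list were negative in 14 genes and positive in 5. Ndufa4l2 read 7.49, 7.55 and 7.49 in KO and 9.59, 9.73 and 9.81 in Het. Aldoc, an aldolase, fell by 1.62, the only call of 19 glycolysis genes, whose median was -0.21. Of these 19 differences, 16 were negative and 3 positive. None of 32 oxidative phosphorylation genes was called and their differences ran from -0.26 to 0.30, and none of 19 cholesterol genes was called; 16 and 11 of them had an unadjusted p below 0.05 in limma. Pparg, the adipogenic nuclear receptor, was the only call of 16 adipocyte genes: it read 7.10, 7.06 and 7.18 in KO and 5.90, 5.98 and 6.06 in Het, with 6.82 in WT.

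Iron handling had 2 calls of 15, Scara5 and the iron exporter Slc40a1, which fell by 1.11 and differed by -0.97 with probe sets averaged. Igf1, an insulin-like growth factor, fell by 1.03, the only call of 15 genes of that family, and differed by -0.76 with probe sets averaged. Of 30 lysosome and autophagy genes none was called in limma (22 at an unadjusted p below 0.05), with Naglu, a lysosomal glucosaminidase, the widest at -0.94. Of 23 antioxidant genes none was called (16 at an unadjusted p below 0.05), and Sod3, Gstt1 and Txnrd1 were at -0.84, -0.73 and 0.59. None of 22 imprinted genes was called either (14 at an unadjusted p below 0.05), with Dlk1 and Cdkn1c at -0.68 and Gatm at -0.67. The other Dlk1 probe set had the opposite sign, at 0.20.

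Stress lists gave no calls. All 18 heat shock genes tested had positive differences, with a median of 0.29, and the widest were Cryab at 0.90, Hspa1b at 0.88 and Dnajb4 at 0.79. With its probe sets averaged Hspa1b was called, at 1.02. Of 23 genes of the unfolded protein and integrated stress responses none was called, and the median was 0.00. By the adjusted p alone in limma, 16 of the heat shock and 11 of the unfolded protein genes passed, and 16 and 12 had an unadjusted p below 0.05.

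Of 18 neural and glial genes, Aqp4, the astrocyte filament Gfap and the oligodendrocyte factor Olig1 fell, the last pair by 1.34 and 1.13. Gfap read 6.98, 7.17 and 7.47 in KO and 8.48, 8.53 and 8.64 in Het, with 9.09 in WT. The neural factor Sox2 averaged 7.61 in both lines. No endothelial gene of 8 tested was called in limma (5 at an unadjusted p below 0.05), and the endothelial markers Pecam1, Cdh5 and Tek were under the filter at 5.01 to 5.43 in KO and 5.07 to 5.63 in Het. Emcn, the endothelial sialomucin endomucin, was also under the filter but was called with none, at 1.23, with means of 6.66 in KO and 5.44 in Het. Erg had the widest difference of the 8, at -0.91, and its other probe set differed by -0.14. Flt1, a VEGF receptor, differed by 0.88, and its 3 other probe sets above the filter by 0.67 to 1.27. Of the 8 differences, 6 were positive and 2 negative. Of 19 fibroblast genes only Pdgfra and Lum were called, with a median of -0.11.

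**Figure D5:**
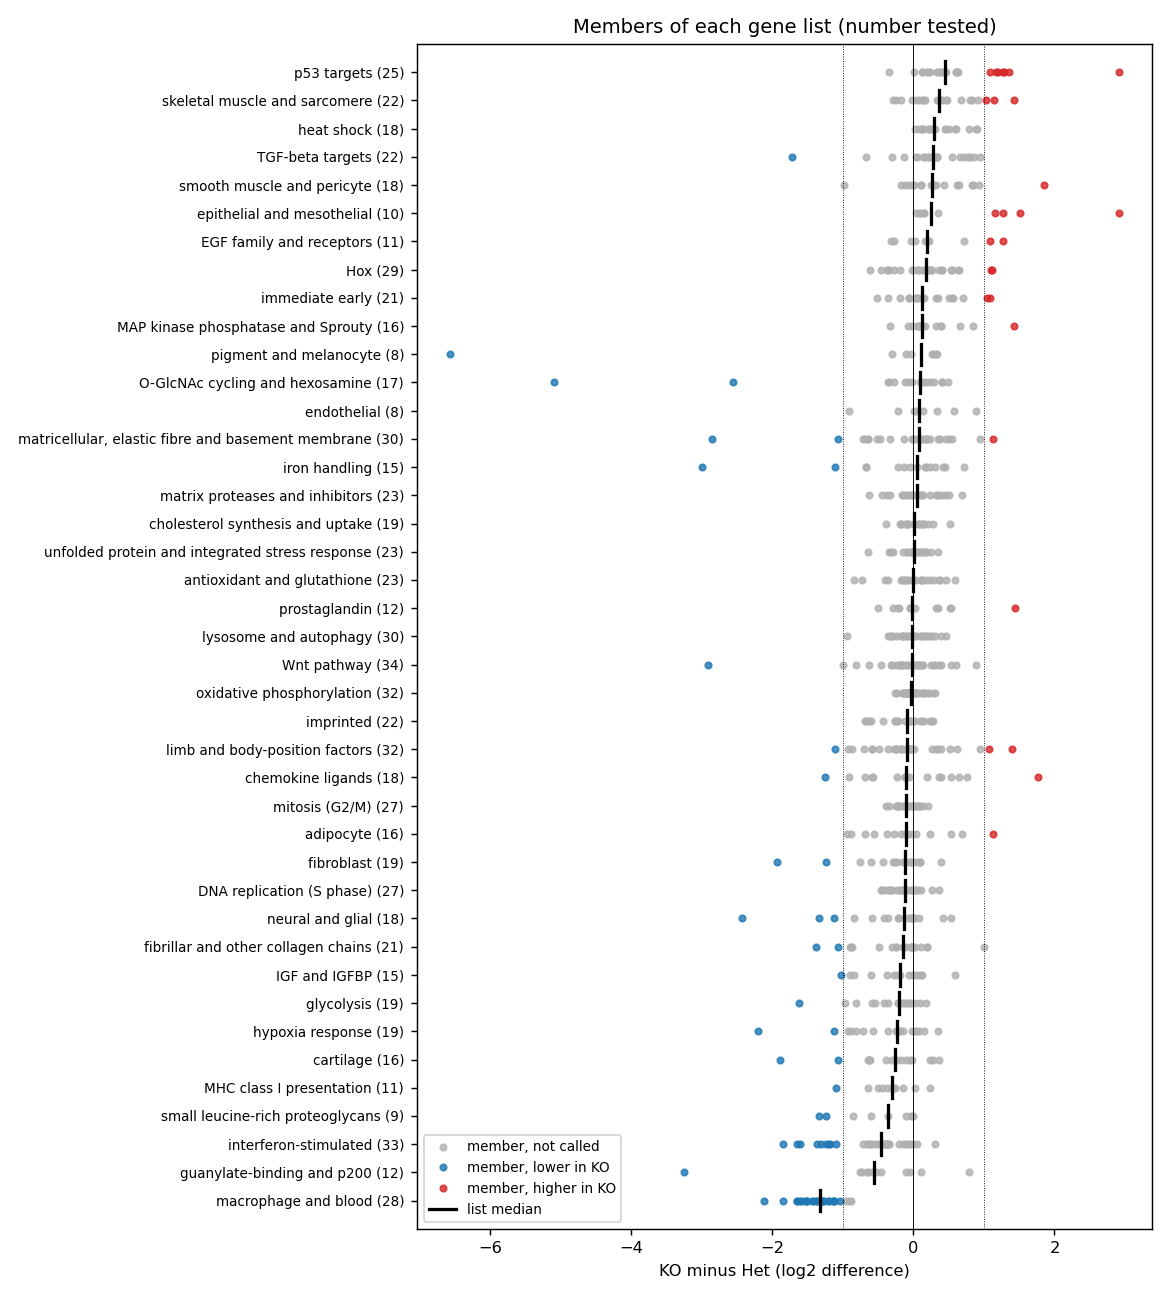
Difference between KO and Het (x axis, log2) for each tested member of each gene list (rows, with the number tested). Grey points were not called, blue points were called lower and red points higher, black bars are list medians and dotted lines mark 2-fold; the macrophage list has the lowest median, -1.33, and the p53 target list the highest, 0.45.

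The WT line gives the level against which both lines can be read, and comparisons with WT share arrays with the comparison above. The median KO difference from WT was -1.73 for macrophage genes, -0.87 for interferon-stimulated genes, 0.52 for p53 targets and 1.11 for skeletal muscle genes. The median Het difference from WT was -0.35, -0.29, 0.05 and 0.41 for the same lists. Over all genes tested these medians were -0.03 for KO and -0.01 for Het. On the p53 targets Het therefore lay near WT, and on the skeletal muscle genes it lay between WT and KO.

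The surroundings of Oga were examined for called genes. Of 206 genes tested within 20 Mb of Oga on chromosome 19, 5 were called (2.43%), close to the share over all genes: Ankrd1 rose, and Pik3ap1, Ifit1, Il33 and Blnk fell. Pik3ap1, an adaptor of B cells and myeloid cells, fell by 1.64, but its other probe set differed by -0.03. The cytokine Il33 fell by 1.06 and the B cell adaptor Blnk by 1.04. Around a, on chromosome 2, 1 of 288 genes was called (0.347%), Cd93. Around Ang, on chromosome 14, 11 of 251 were called (4.38%), 6 higher and 5 lower, among them Scara5, Rpgrip1, Trim13, Stab1 and Ldb3. The window around Ang was chosen after the values were seen, so its share is a description.

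Of the 259 called genes, 99 had another probe set above the filter. In 39 of the 99 all other probe sets differed by less than 2-fold, and in 2 at least 1 differed the other way, so the size of a call often depends on the probe set. Fitted on all 45037 probe sets with no filter, 474 were called (1.05%), 187 higher and 287 lower, and 40 of them have no single gene name here.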

How the data were processed

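RNA of 3 MEF lines was measured on 9 Affymetrix arrays, 3 per line. The authors deposited a table of log2 values per probe set; GCOS and Partek are named in the submitters' processing notes, and the summarisation, normalization and log base are not given in the sources used here, so log2 was read from the values. Of 45101 probe sets, 64 controls were left out; of the rest 34945 have a single gene symbol in the platform annotation, 932 several and 9160 none, and only single-symbol probe sets name a gene. The dimmest 40% of probe sets, ranked on their 9-array mean (under 6.22), were left out, the brightest per gene was kept, and 12962 genes were fitted with limma 3.58.1 (R 4.3.3) over all 3 lines, with Benjamini-Hochberg adjustment. The number of arrays limits precision, and differences near background are understated. Alternatives covered normalization, filter, probe set rule, fit, thresholds and left-out arrays. On simulated data, limma called 50, 100, 100 and 100% of genes changed by 1, 1.25, 1.5 and 2 and 0 of 12762 unchanged genes. The simulated spread was only that between arrays of a line. Unchanged genes had the same mean in all lines, so these shares give no error rate for the calls made here. Named genes were Oga and Ogt, the 15 largest rises and falls without clone names, up to 6 called members per list (up to 3 members where none was called), the markers of cell types and called genes near Oga; uncalled members and called members past the sixth that lie outside this rule were named after their values were seen. The members and lists were chosen with earlier results of these data known. Figures used matplotlib 3.10.9.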

Additional observations from a re-analysis of the deposited data

How the results depend on the processing

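Fitting all probe sets above the filter separately, 406 were called, 151 of them higher. With a 1.5-fold minimum 895 genes were called (338 higher, 557 lower), and with no fold minimum 6782 (3077 higher, 3705 lower). Other settings gave 198 to 273 genes: 246 after quantile normalization (242 shared), 250 after median centring, 272 with no filter, 198 with the dimmest 60% left out, 240 with probe sets averaged, and 252 to 273 when each array was left out in turn. With the replicate number as a block (replicate block) 259 genes were called, 81 higher and 178 lower, and all 259 were shared. Replicate numbers do not pair the arrays: deviations of same-numbered KO and Het arrays correlated at -0.08, 0.01 and 0.19, and 2 of 6 arrays correlated best with their own number. Over the 18 settings run on genes, 113 named genes were followed. Of these, 103 kept their side of the threshold wherever they were tested, and none reversed. Other genes named here, such as Mdm2, Mpeg1 and Spi1, were not followed. Sod3 was called at -1.01 without Het replicate 1, and Igf1 was at -0.98 after median centring. Probe sets near background limit what can be seen of low genes.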

Other observations

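Several genes outside the lists were called, and all of those named here were chosen after their values were seen. Further myeloid genes fell: the chemokine Ccl12 by 1.75, the Fc receptor-like Fcrls by 1.59, the scavenger receptor Msr1 by 1.40, the complement receptor C3ar1 by 1.33 and the oxidase subunit Ncf1 by 1.16. Spi1, which encodes PU.1, fell by 1.00, right at the 2-fold minimum. The neurotrophin Bdnf rose by 1.28 and the cytokine Lif by 1.22. The transcription factor Gata3 rose by 1.26, from 6.19 in Het to 7.44 in KO, and the chromatin protein Hmga2 by 1.01.

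With no low-signal filter 13 more genes were called, 10 higher and 3 lower, each dim in at least 1 line. Besides Dsp, the oxidised lipoprotein receptor Olr1 read 7.53, 7.17 and 7.31 in KO and 5.13, 5.29 and 5.21 in Het, and the epithelial cytokine Tslp averaged 6.36 in KO and 4.79 in Het. The endopeptidase Phex averaged 4.62 and 6.65, and the arginase Arg1 5.08 and 6.52. Ppbp, a platelet chemokine, averaged 6.44 in KO, 5.17 in Het and 6.75 in WT.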
